A study of Mus musculus with 84 samples.

Results

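The step from day 3 to day 6 of reprogramming with Smad3CA was followed in 6 libraries, 3 on each day, among the 30 libraries of the series. They were chosen by title alone and hold 18 of the 84 sequenced wells, since the 3 technical wells of each biological replicate were summed. The cells were mouse embryonic fibroblasts (MEFs) of 129 background that express the factors c-Myc, Klf4, OCT4 (Pou5f1) and Sox2 together with an mOrange reporter from a single MKOS cassette switched on by doxycycline, with GFP in the Nanog locus. They were cultured among wild-type MEFs in ESC medium with LIF, 300 ng/ml doxycycline and vitamin C, and were infected with a pMXs retrovirus that expressed Smad3CA, a constitutively active SMAD3 (+Sm3CA). A parallel series carried a BFP vector instead (Cont) and shared all other alleles, reagents and days. Cells were sorted for mOrange on each day, so a library pooled transgenic cells at every stage of conversion. The share of cells that carried the retrovirus in each library was not measured here. Wild-type 129 MEFs and ESCs of the TNG MKOS line were the start and end points of the series.

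Reprogramming to pluripotency passes through ordered steps. Fibroblasts first give up mesenchymal and contractile genes and take on epithelial junctions, which is called the mesenchymal-to-epithelial transition (MET), and the genes that maintain ESCs are switched on late. TGF-β and activin bind paired receptor kinases that phosphorylate SMAD2 and SMAD3, which then enter the nucleus with SMAD4, and in fibroblasts this pathway raises matrix, contractile and feedback genes. Constitutively active SMAD3 carries changes at its C terminus that mimic this phosphorylation.

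Values are given as normalized counts, the reads of a gene in a library after division by the size factor of that library, in the order of replicates 1, 2 and 3. The 6 libraries held 1154361 to 1851460 reads. STRT sequences the 5′ ends of transcripts, so levels were compared between days and not between genes. As these were bulk samples, fewer cells of a type and less RNA per cell cannot be told apart. Day 3 libraries came from plate rows A to C and day 6 libraries from rows D to F, and day and plate row cannot be told apart either. The share of reads on mitochondrial genes was 13.5% to 14.6% on day 3 and 17.1% to 19.6% on day 6, and the 20 most abundant genes took 19.5% to 21.5% and then 24.2% to 25.3% of the reads. The part of these shifts in the results was not tested.

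Smad3, whose counts hold both the endogenous gene (chromosome 9, 63646767 to 63757994 in GRCm38) and the retroviral transcript, had 184, 89.04 and 126 normalized counts on day 3 and 49.6, 90.8 and 47.2 on day 6. Cont cells had 18.7, 5.19 and 8.94 on day 3 and 11.1, 22.02 and 14.9 on day 6, so every +Sm3CA library stood above every Cont library. The days overlapped in +Sm3CA, since replicate 2 had about the same count on both. Smad3 fell by 1.06 on the log2 scale, with an SE of 0.28 and an adjusted p of 0.00624 in edgeR's quasi-likelihood test. The call was lost without day 3 replicate 1 and without day 6 replicate 1, with log2 fold changes of −1.44 to −0.74 over the 6 libraries left out in turn. Pou5f1, which encodes OCT4 (chromosome 17, 35506018 to 35510772), had 20.7, 15.8 and 16.7 normalized counts on day 3 and 105, 81.5 and 80.97 on day 6. Every day 6 library was far above every day 3 library (log2 fold change 2.33 ± 0.25 (SE), adjusted p = 1.21e-08). Myc fell from 32.2, 28.8 and 50.1 to 14.5, 16.3 and 16.2 (log2 fold change −1.21 ± 0.35 (SE), adjusted p = 0.0125), a call that was lost without day 3 replicate 3 or day 6 replicate 1. Sox2 had 19.96, 12.98 and 36.5 normalized counts on day 3 and 9.40, 9.31 and 13.5 on day 6 and an adjusted p of 0.0588. Klf4 had 15.3, 16.7 and 20.9 normalized counts on day 3 and 23.9, 27.2 and 21.6 on day 6 and an adjusted p of 0.316, so neither of these genes was called. Counts of the MKOS genes can include the cassette as well as the endogenous locus.

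The question this interval answers is how expression moved once MKOS and Smad3CA had both been present for 3 days. In +Sm3CA cells 985 of the 10237 genes tested (9.62%) rose from day 3 to day 6 and 918 (8.97%) fell, at a Benjamini-Hochberg adjusted p under 0.05 in the same test. Of these, 579 rose and 415 fell at least 2-fold, and 185 rose and 80 fell at least 4-fold. The median log2 fold change over all genes tested was 0.04. Falls were more frequent among abundant genes. Of the 2048 most abundant genes tested 397 fell and 243 rose, and of the 2048 least abundant 79 fell and 100 rose. The lists below were set against all genes tested and not against genes of like abundance. Among the called genes, 910 of the 985 that rose (92.4%) and 880 of the 918 that fell (95.9%) had day 3 and day 6 libraries that did not overlap. Over all genes tested, 17.0% were free of overlap in the upward direction and 16.3% in the downward direction. The calls used these same libraries, so the lack of overlap among called genes is no separate support for them. Single libraries weighed on these counts. Without day 3 replicate 2 there were 627 rises and 568 falls, and without day 6 replicate 1 there were 625 and 550.

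The largest changes were taken among called genes free of overlap between days, with a mean of at least 20 normalized counts over the 6 libraries. They fell on genes of varied function. The water channel gene Aqp8 (chromosome 7, 123462291 to 123468004) had no read in any day 3 library and 38.5, 49.7 and 67.5 normalized counts on day 6. This is at least 18.9-fold higher, taking 3 reads per library as the limit for a count of 0 (adjusted p = 4.67e-09). Dqx1, which encodes a helicase-like protein (chromosome 6, 83057844 to 83067318), was already present on day 3 and had 197, 195 and 188 normalized counts on day 3 and 1445, 1047 and 1632 on day 6. It rose 7.19-fold (log2 fold change 2.85 ± 0.24 (SE), adjusted p = 1.73e-10), the smallest adjusted p of the interval. Plbd1, encoding a phospholipase B-like protein, had 2.30, 4.64 and 6.26 normalized counts on day 3 and 75.2, 56.7 and 62.1 on day 6 (log2 fold change 3.92 ± 0.39 (SE), adjusted p = 4.67e-09). Pga5, the gene of a pepsinogen otherwise known from the stomach, had 16.1, 9.27 and 7.30 normalized counts on day 3 and 94.9, 93.9 and 78.3 on day 6 (log2 fold change 3.00 ± 0.30 (SE), adjusted p = 4.67e-09). Both were low in each day 3 library. The other genes that rose most were 1600029D21Rik, Epcam, Lgals7, Serpinb6c, Gtsf1l, Scara5, Cxcl1 and Cdh1, with log2 fold changes of 2.42 to 3.22. Serpinb6c belongs to a serpin family with close copies, so its reads may be shared with them.

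Among the genes at this level that fell most, Eno3, the muscle form of the glycolytic enzyme enolase (chromosome 11, 70657202 to 70662513), had 183, 353 and 339 normalized counts on day 3 and 16.2, 47.4 and 28.3 on day 6. It fell 9.21-fold (log2 fold change −3.20 ± 0.29 (SE), adjusted p = 9.67e-10). Inhba, which encodes the subunit of activin A, had 51.4, 62.1 and 45.9 normalized counts on day 3 and 0.85, 3.10 and 17.5 on day 6, with replicate 3 the highest of the day 6 libraries and still under every day 3 library (log2 fold change −3.11 ± 0.58 (SE), adjusted p = 0.000173). Lack of overlap between days was part of the rule that chose these genes, as for those that rose most. Lgals1, encoding the galectin abundant in fibroblasts, had 2175, 3779 and 3064 normalized counts on day 3 and 392, 650.5 and 764 on day 6 (log2 fold change −2.31 ± 0.27 (SE), adjusted p = 7.6e-08). S100a4, a calcium-binding protein gene widely used as a fibroblast marker, had 599, 1357 and 926 normalized counts on day 3 and 92.3, 258 and 177 on day 6. Crabp1, which encodes a cytoplasmic retinoic acid carrier, had 107, 156 and 118 normalized counts on day 3 and 23.9, 20.2 and 9.45 on day 6. In the last 3 of these genes replicate 1 was the lowest day 3 library, and it still stood above every day 6 library. The other large falls were those of 0610007N19Rik, Sprr2b, Actg2, Ly6e, Fam198b, Gchfr and 1700037H04Rik, with log2 fold changes of −2.92 to −2.30.

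**Figure D1:**
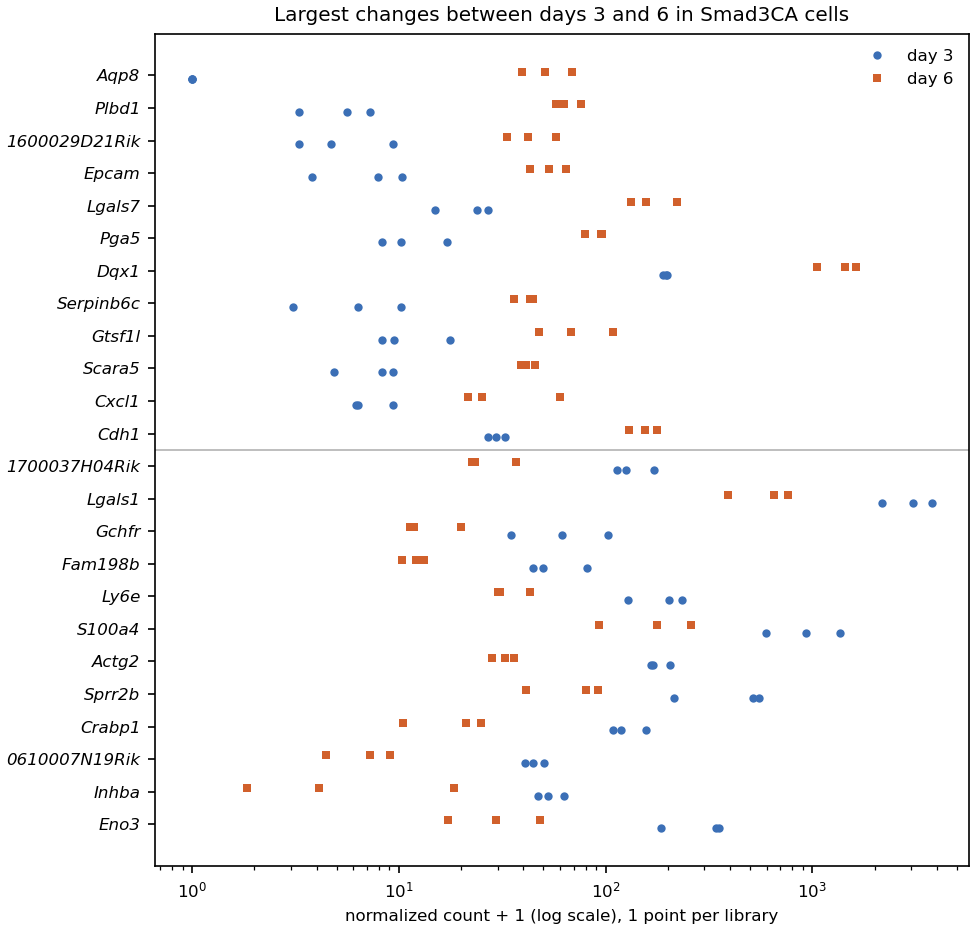
Normalized count plus 1 on a log axis for the 12 genes with the largest rise and the 12 with the largest fall among called genes free of overlap with a mean of at least 20 normalized counts over the 6 libraries, 1 point per +Sm3CA library, circles for day 3 and squares for day 6. Aqp8 stands at 0 in the 3 day 3 libraries, and Dqx1 runs from 188 to 197 on day 3 and from 1047 to 1632 on day 6.

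Epithelial genes rose more often than they fell, where 9.62% of all genes tested rose and 8.97% fell. Of the 44 genes listed for MET and epithelial junctions, 37 passed the filter on low counts, and 20 of these rose and 2 fell, with a median log2 fold change of 1.50 against 0.04 over all genes tested. Some were at 3 reads or fewer in each library of day 3, and with those set to the lower bound of their change the median was 0.94. Cdh1, the gene of E-cadherin (chromosome 8, 106603351 to 106670246), had 28.4, 31.5 and 26.1 normalized counts on day 3 and 177, 128 and 154 on day 6 (log2 fold change 2.42 ± 0.23 (SE), adjusted p = 1.74e-09). Epcam, an adhesion molecule of epithelia and ESCs (chromosome 17, 87635979 to 87651129), had 6.91, 2.78 and 9.39 normalized counts on day 3 and 52.1, 41.9 and 63.4 on day 6 (log2 fold change 3.03 ± 0.34 (SE), adjusted p = 3.21e-08). Krt8, the keratin of simple epithelia (chromosome 15, 101996698 to 102004482), had 147, 236 and 175 normalized counts on day 3 and 539.5, 614 and 551 on day 6 (log2 fold change 1.63 ± 0.18 (SE), adjusted p = 1.34e-08). In none of the 3 genes did the days overlap. Lad1, a component of basement membrane anchors, rose as well (log2 fold change 1.59). Other members that rose, singled out after their values were seen, included the tight junction gene Cldn4 (2.51), the protease gene St14 (2.24), its inhibitor gene Spint2 (1.63) and the desmosomal cadherin gene Dsg2 (1.50). The junction genes Jup and F11r fell, with log2 fold changes of −0.83 and −0.51. Leaving out single libraries gave 17 to 19 members that rose, while 1 well per library gave 12.

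The E-box CACCTG, the sequence bound by the SNAI and ZEB repressors of epithelial genes, was searched on both strands in the 250 bases before the start site in RefSeq (GRCm38.p6), on its own and without regard to other motifs. Of the 14 called MET genes with a promoter sequence, 11 held it, as did 5 of the 8 other members tested, against 17.3% of the 7601 tested genes with a promoter and 19.4% of 27025 promoters in all. Krt8 and Epcam are shown because both rose and were among the named members, with the motif in capitals on either strand. The Krt8 window is chr15:102004343-102004592 on the minus strand and the Epcam window chr17:87635729-87635978 on the plus strand, both written 5′ to 3′ up to the RefSeq start site. The Krt8 position given above, from GENCODE, starts further upstream at 102004482. The Krt8 motif thus lies before the RefSeq start but inside the GENCODE gene.
Krt8: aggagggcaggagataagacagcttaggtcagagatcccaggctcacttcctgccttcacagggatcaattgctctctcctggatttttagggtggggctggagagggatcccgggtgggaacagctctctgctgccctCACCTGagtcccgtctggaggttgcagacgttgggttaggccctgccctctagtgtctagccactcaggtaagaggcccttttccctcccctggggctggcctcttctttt
Epcam: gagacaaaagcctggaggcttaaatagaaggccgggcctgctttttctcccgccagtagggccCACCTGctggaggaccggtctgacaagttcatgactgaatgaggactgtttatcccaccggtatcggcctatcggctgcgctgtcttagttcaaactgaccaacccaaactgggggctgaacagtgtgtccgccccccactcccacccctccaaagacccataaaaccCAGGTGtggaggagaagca

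Of 16 mesenchymal transcription factors and cadherins tested, 4 fell and none rose, with a median log2 fold change of −1.0. Of all genes tested 8.97% fell and 9.62% rose. Cdh2, the gene of N-cadherin, had 66.8, 39.9 and 50.1 normalized counts on day 3 and 16.2, 16.3 and 13.5 on day 6, without overlap (log2 fold change −1.73 ± 0.37 (SE), adjusted p = 0.000792). S100a4 is described above. Runx2, a transcription factor of bone and mesenchyme, had 14.6, 15.8 and 11.5 normalized counts on day 3 and 4.27, 3.10 and 2.70 on day 6, and Thy1, a surface glycoprotein of fibroblasts, had 16.1, 12.98 and 19.8 normalized counts on day 3 and 5.13, 3.88 and 8.10 on day 6. Both counts are low, and the adjusted p of 0.0174 for Runx2 and of 0.0341 for Thy1 were lost when single libraries were left out (3 of 6 libraries for Runx2 and 4 of 6 for Thy1). Without day 6 replicate 2, 2 members of the list fell. The intermediate filament gene Vim had 721, 697 and 734 normalized counts on day 3 and 449, 508 and 516 on day 6, free of overlap but not called (adjusted p = 0.0956).

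Matrix genes fell more often than they rose, where 8.97% of all genes tested fell and 9.62% rose. Of 28 collagens and collagen-processing genes tested, 8 fell and 1 rose, with a median log2 fold change of −0.73. Col1a1 (chromosome 11, 94936224 to 94953042) had 186, 122 and 211 normalized counts on day 3 and 58.99, 60.5 and 40.5 on day 6 (log2 fold change −1.65 ± 0.30 (SE), adjusted p = 0.000126). Lox, whose product cross-links collagen, had 157, 162 and 229.5 normalized counts on day 3 and 55.6, 84.6 and 67.5 on day 6 (log2 fold change −1.37 ± 0.26 (SE), adjusted p = 0.000199). Bmp1, which encodes the procollagen C-proteinase, had 39.9, 30.6 and 42.8 normalized counts on day 3 and 8.55, 9.31 and 13.5 on day 6 (log2 fold change −1.87 ± 0.36 (SE), adjusted p = 0.000278). In these 3 genes no day 6 library reached the lowest day 3 library. Pcolce, which encodes the enhancer of that same proteinase, went the other way, with 362, 377 and 413 normalized counts on day 3 and 639.5, 848 and 775 on day 6 (log2 fold change 0.99 ± 0.18 (SE), adjusted p = 9.77e-05). Col1a2, which pairs with Col1a1 in type I collagen, and Col3a1 were not called, with log2 fold changes of −0.27 and 0.56.

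Of 36 other matrix glycoproteins and proteoglycans, 15 fell and 1 rose, against 8.97% and 9.62% of all genes tested. Their median was −0.73. Sparc, a collagen-binding glycoprotein, had 1477, 2148 and 1843 normalized counts on day 3 and 508, 774 and 559 on day 6 (log2 fold change −1.55 ± 0.24 (SE), adjusted p = 1.04e-05). Bgn, the proteoglycan biglycan, had 166, 139 and 195 normalized counts on day 3 and 36.8, 61.3 and 41.8 on day 6 (log2 fold change −1.80 ± 0.28 (SE), adjusted p = 1.28e-05). Ecm1 fell by 2.08 on the log2 scale, and the anti-adhesive glycoprotein gene Tnc by 1.93, from 159, 62.1 and 77.2 to 20.5, 37.3 and 17.5 normalized counts, with day 3 replicate 1 the highest of its group. Fn1, the gene of fibronectin, fell by 0.90. The rising member was Aspn, the proteoglycan asporin, singled out with Fn1 after their values were seen, with 1.54, 0.93 and 4.17 normalized counts on day 3 and 29.9, 17.9 and 29.7 on day 6 (adjusted p = 0.00021).

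In the list of matrix proteases and inhibitors 3 of 18 members fell and 1 rose, with a median of −0.60. Of all genes tested 8.97% fell and 9.62% rose. Timp1, an inhibitor of matrix metalloproteinases (chromosome X, 20870166 to 20874735), had 1043, 2322 and 1695 normalized counts on day 3 and 348, 597 and 421 on day 6 (log2 fold change −1.87 ± 0.25 (SE), adjusted p = 1.27e-06). Timp2 fell as well (log2 fold change −1.35 ± 0.31 (SE)). Both inhibitors were lower in every day 6 library than in any day 3 library. Plaur, the urokinase receptor gene, had 178, 223 and 211 normalized counts on day 3 and 73.5, 74.5 and 87.7 on day 6 (log2 fold change −1.36 ± 0.22 (SE), adjusted p = 2.08e-05). The call of Timp2 was lost with 1 well per library. The member that rose was the stromelysin gene Mmp3, which had 2.30, 0 and 2.09 normalized counts on day 3 and 31.6, 6.21 and 10.8 on day 6. The days did not overlap, but the call was lost without any 1 of the day 3 libraries and without day 6 replicate 1.

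Contractile genes fell without exception among those called, where 8.97% of all genes tested fell and 9.62% rose. Of 25 smooth muscle contractile genes tested, 13 fell and none rose, with a median log2 fold change of −0.76. Actg2, the enteric smooth muscle actin gene (chromosome 6, 83512905 to 83536265), had 165, 203 and 168 normalized counts on day 3 and 31.6, 27.2 and 35.1 on day 6 (log2 fold change −2.51 ± 0.26 (SE), adjusted p = 7.6e-09). Tagln, encoding the actin-binding protein transgelin, had 288, 456 and 366 normalized counts on day 3 and 87.2, 106 and 109 on day 6 (log2 fold change −1.86 ± 0.24 (SE), adjusted p = 5.67e-07). Both were lower in every day 6 library than in any day 3 library. Tropomyosin Tpm1 had 647, 852 and 722 normalized counts on day 3 and 243, 335 and 343 on day 6 (log2 fold change −1.26 ± 0.18 (SE), adjusted p = 5.17e-06). Calponin Cnn2 had 75.2, 103 and 103 normalized counts on day 3 and 23.9, 34.1 and 31.04 on day 6 (log2 fold change −1.63 ± 0.25 (SE), adjusted p = 1.28e-05). The same held for these. Acta2, which encodes α-smooth muscle actin, fell by 1.53 on the log2 scale. Actin genes are near-identical in their coding parts, so reads of Actg2 and Acta2 may be shared in part. Leaving out single libraries gave 10 to 13 falls.

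The CArG box, the site of serum response factor, which drives many contractile genes, was searched on both strands in the same windows. It lay in 4 of the 11 fallen contractile genes with a promoter sequence and in 1 of the 9 other members tested, against 1.39% of tested genes and 1.62% of all promoters. Cnn2 is shown as a named member that fell and holds the motif, in capitals, on chr10:79988350-79988599, plus strand.
Cnn2: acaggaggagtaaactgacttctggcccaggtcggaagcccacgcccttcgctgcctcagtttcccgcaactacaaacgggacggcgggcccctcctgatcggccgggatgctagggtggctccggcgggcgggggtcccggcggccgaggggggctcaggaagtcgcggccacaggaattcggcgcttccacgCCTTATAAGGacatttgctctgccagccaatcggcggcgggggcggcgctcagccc

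Target genes of TGF-β and SMAD3 fell more often than they rose, where 8.97% of all genes tested fell and 9.62% rose. Of 35 tested, 15 fell and 5 rose, with a median log2 fold change of −0.62. Many of these are matrix or contractile genes and are also in those lists (Tagln, Timp1, Col1a1, Acta2, Fn1). The listed genes of ID proteins, which inhibit basic helix-loop-helix factors and respond mainly to BMP signalling, all fell. Id3 had 303, 477 and 335 normalized counts on day 3 and 75.2, 90.8 and 85.02 on day 6 (log2 fold change −2.13 ± 0.22 (SE), adjusted p = 7.52e-09), and Id1 and Id2, singled out after their values were seen, had log2 fold changes of −1.50 and −1.20. The immediate targets Ctgf, Cyr61, Tgfbi and the feedback gene Pmepa1 fell by 0.67 to 1.37 on the log2 scale. Il11, a cytokine gene induced by TGF-β, had 11.5, 15.8 and 14.6 normalized counts on day 3 and 0, 0.78 and 1.35 on day 6, and Gal, the gene of the neuropeptide galanin, had 16.9, 61.2 and 31.3 normalized counts on day 3 and 0, 0.78 and 0 on day 6, with 1 read at most in a day 6 library. Gal was at 0, 0 and 0 on day 3 and 0, 0.96 and 0 on day 6 in Cont cells.

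The members that rose were of several kinds. Lefty1 and Lefty2 encode secreted inhibitors of Nodal that are expressed in ESCs. Lefty2 had 2.30, 0 and 2.09 normalized counts on day 3 and 21.4, 26.4 and 21.6 on day 6, and Lefty1 had 0, 0 and 1.04 normalized counts on day 3 and 9.40, 17.9 and 2.70 on day 6. Both stood at 3 reads or fewer in each day 3 library and were called (adjusted p = 1.45e-06 and 0.00154). Skil, the gene of the SMAD co-repressor SnoN, had 39.9, 63.1 and 36.5 normalized counts on day 3 and 91.5, 66.8 and 94.5 on day 6 (log2 fold change 0.86 ± 0.23 (SE), adjusted p = 0.00611). Klf10 and the chromatin protein gene Hmga2 rose with log2 fold changes of 0.82 and 0.89. With 1 well per library, 10 members fell and 2 rose.

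**Figure D2:**
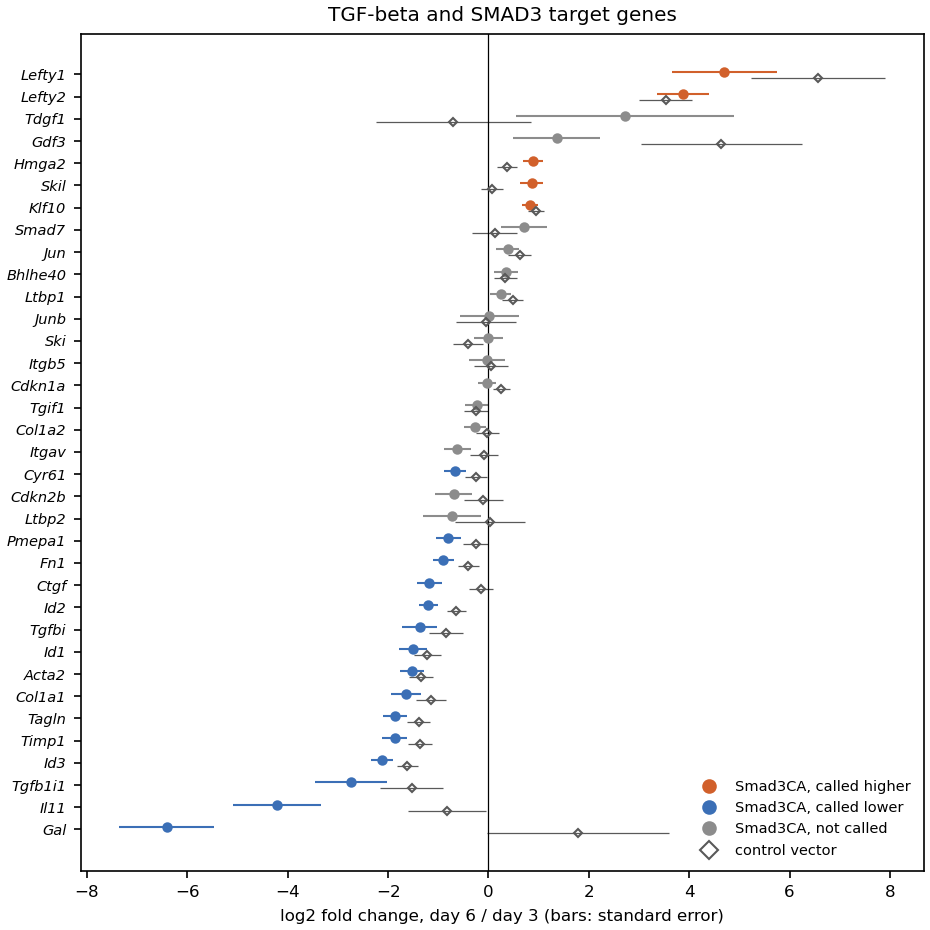
Log2 fold change from day 3 to day 6 with its standard error for the 35 TGF-β and SMAD3 target genes tested, filled circles for +Sm3CA (coloured where called) and open diamonds for Cont. Id3 stands at −2.13 and Skil at 0.86 in +Sm3CA, and the genes at either end had at most 3 reads in each library of 1 day, so their fitted positions depend on the prior count.

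Within the pathway itself no receptor was called. Of 24 ligands, receptors and SMADs tested, 5 fell and none rose, with a median of −0.14, where 8.97% of all genes tested fell. The 5 that fell were Inhba, Bmp1, Smad3, the BMP antagonist gene Grem1 and Fstl1, which encodes a follistatin-like protein. Grem1 had 7.68, 11.1 and 9.39 normalized counts on day 3 and 0, 1.55 and 0 on day 6 (adjusted p = 0.0105), and its call was lost without day 6 replicate 1. Smad2 and Smad4, the partners of SMAD3, had log2 fold changes of 0.57 and 0.14 and were not called. Without day 6 replicate 1, 2 of the 24 members fell.

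Pluripotency genes rose in 10 of 35 members tested, and none fell, where 9.62% of all genes tested rose and 8.97% fell. The median log2 fold change was 1.36, and 1.18 over the 24 members above 3 reads in some library, with bounds. Zfp42, the ESC marker REX1, had 9.98, 13.9 and 6.26 normalized counts on day 3 and 38.5, 31.1 and 51.3 on day 6 (log2 fold change 1.96 ± 0.36 (SE), adjusted p = 0.000144). Tet2, an enzyme that oxidises methylated cytosine, had 12.3, 17.6 and 15.7 normalized counts on day 3 and 46.2, 42.7 and 44.5 on day 6 (log2 fold change 1.57 ± 0.29 (SE), adjusted p = 0.000187). Besides Cdh1, Epcam and the Lefty genes, the transcription factor genes Tbx3 and Sall1, the RNA-binding protein gene Trim71 and the L1td1 gene rose, of which Tbx3 lost its call with the replicate block (adjusted p = 0.062). Nanog had 0, 0 and 0 normalized counts on day 3 and 0.85, 0 and 1.35 on day 6, and Esrrb had 0, 0.93 and 0 normalized counts on day 3 and 0.85, 0 and 2.70 on day 6, so the central late genes stayed at or near 0 reads in most libraries at this depth. In ESCs Zfp42 stood at 2812 ± 739 normalized counts and Nanog at 202 ± 156 (SD, n = 3). The count of rising members was 8 or 9 when any single library was left out and 6 with 1 well per library.

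Chromatin regulators showed few calls. Among 15 writers and erasers of DNA methylation Tet2 was the called member. Of 23 Polycomb subunits 3 rose (Suz12, Phc1 and Pcgf5) and 1 fell, which is near the 9.62% and 8.97% of all genes tested that rose and fell. The falling gene was Rbbp4, a histone chaperone gene, with 75.99, 90.9 and 108 normalized counts on day 3 and 32.5, 52.01 and 52.6 on day 6 (log2 fold change −0.99 ± 0.24 (SE), adjusted p = 0.00334). Suz12 had 17.6, 10.2 and 24 normalized counts on day 3 and 38.5, 34.1 and 28.3 on day 6 (adjusted p = 0.0272), and Pcgf5 had a single low day 3 library, with 30.7, 3.71 and 21.9 normalized counts on day 3 and 44.5, 37.3 and 32.4 on day 6 (adjusted p = 0.0463). Suz12, Phc1 and Pcgf5 lost their calls when single libraries were left out.

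Hox genes, which specify position along the body axis, rose in 2 of 8 members tested, against 9.62% of all genes, with a median of −0.01. Hoxa9 had 10.8, 10.2 and 6.26 normalized counts on day 3 and 41.9, 34.9 and 33.7 on day 6 (log2 fold change 2.01 ± 0.37 (SE), adjusted p = 0.000153). Hoxb7 rose as well (adjusted p = 0.00848), but lost its call without day 3 replicate 1 or day 6 replicate 3. Of 16 imprinted growth regulators 4 fell and 2 rose, where 8.97% of all genes tested fell and 9.62% rose. Igf2, the gene of the fetal growth factor, had 539.6, 601 and 657 normalized counts on day 3 and 423, 336 and 269.9 on day 6 (log2 fold change −0.78 ± 0.17 (SE), adjusted p = 0.000948), the amino acid transporter gene Slc38a4 had 254, 269 and 227 normalized counts on day 3 and 131, 142 and 131 on day 6 (log2 fold change −0.88 ± 0.18 (SE), adjusted p = 0.000672), and Mest fell with a log2 fold change of −0.81. The non-coding Meg3 rose, with 40.7, 31.5 and 45.9 normalized counts on day 3 and 72.7, 93.9 and 60.7 on day 6 (log2 fold change 0.98 ± 0.25 (SE), adjusted p = 0.00426). Without day 6 replicate 3, 2 imprinted genes fell.

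Of 13 surface markers of reprogramming stages, Cdh1, Epcam, Kit and Cd47 rose, and Thy1 and Cd24a fell. The shares of all genes tested were 9.62% and 8.97%. Cd47, the signal that protects cells from phagocytosis, had 32.2, 36.2 and 30.3 normalized counts on day 3 and 53.01, 53.6 and 66.1 on day 6 (log2 fold change 0.81 ± 0.23 (SE), adjusted p = 0.0112). Kit, the stem cell factor receptor gene, had 3.84, 11.1 and 7.30 normalized counts on day 3 and 20.5, 24.8 and 10.8 on day 6, with an overlap of the groups (adjusted p = 0.0142). The calls of Kit, Cd47 and Thy1 were lost when single libraries were left out. Cd44 and Icam1, which mark stages of this reprogramming system, were not called, with log2 fold changes of −0.42 and −0.47.

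Keratins and genes of the cornified envelope, which belong to stratified epithelia, split by gene. Of 22 tested, 7 fell and 3 rose, with a median of −0.20 (−0.02 with bounds). Among all genes tested 8.97% fell and 9.62% rose, and the share of rises in the list was near the latter. Krt6a, a keratin of stressed epidermis, had 233, 607 and 471 normalized counts on day 3 and 92.3, 97.8 and 104 on day 6 (log2 fold change −2.14 ± 0.27 (SE), adjusted p = 4.35e-07). Sprr2b, a cornified envelope precursor gene, had 214, 554 and 516 normalized counts on day 3 and 40.2, 90.8 and 79.6 on day 6 (log2 fold change −2.59 ± 0.35 (SE), adjusted p = 1.61e-06). In both genes day 3 replicate 1 was less than the other day 3 replicates and still above every day 6 library. Krtdap, a gene of differentiating keratinocytes, rose, with 148, 155 and 99.1 normalized counts on day 3 and 478, 376 and 655 on day 6 (log2 fold change 1.91 ± 0.20 (SE), adjusted p = 1.21e-08). Lgals7, the galectin of stratified epithelia, had 26.1, 13.9 and 22.9 normalized counts on day 3 and 132, 221 and 157 on day 6 (log2 fold change 3.02 ± 0.35 (SE), adjusted p = 1.01e-07), and Krt17 rose with a log2 fold change of 0.84. Members of the Sprr2 family are close copies, so their reads may be shared. The count of falls depended on single libraries and was 3 without day 3 replicate 2, 4 without day 3 replicate 3, 4 without day 6 replicate 1 and 4 without day 6 replicate 2.

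Interferon-stimulated genes rose in 9 of 47 members tested and fell in 2. Their median was 1.24 and came to 0.38 with low genes at their bounds. Among all genes tested 9.62% rose and 8.97% fell. Much of the rise in the list lay in 1 library. Cxcl10, a chemokine gene induced by interferon (chromosome 5, 92346638 to 92348889), had no read on day 3 and 15.4, 45.02 and 4.05 normalized counts on day 6, at least 7.85-fold higher against 3 reads per library (adjusted p = 0.000131). Rtp4, which encodes a chaperone of G-protein-coupled receptors, had 3.07, 0 and 0 normalized counts on day 3 and 5.98, 35.7 and 12.2 on day 6 (adjusted p = 0.00044). Ifit1, whose product binds foreign RNA, had 0, 0 and 1.04 normalized counts on day 3 and 1.71, 17.9 and 6.75 on day 6, and Rsad2, the gene of the antiviral enzyme viperin, had 0, 0 and 2.09 normalized counts on day 3 and 1.71, 14.8 and 0 on day 6. In these 4 genes day 6 replicate 2 was the highest library. Xaf1, an apoptosis regulator gene, was spread evenly over the replicates, with 33.01, 51.9 and 59.5 normalized counts on day 3 and 94.05, 109 and 132 on day 6 (log2 fold change 1.24 ± 0.27 (SE), adjusted p = 0.000988). Without day 6 replicate 2, 4 members rose, a share near that of all genes tested, of which 869 rose in that fit.

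The members that fell were Ly6e, which encodes a surface protein that affects viral entry, and Ifitm3 (log2 fold change −0.93). Ly6e had 127, 232 and 202 normalized counts on day 3 and 29.1, 41.9 and 29.7 on day 6 (log2 fold change −2.43 ± 0.31 (SE), adjusted p = 5.57e-07). The interferon-stimulated response element, searched as GAAANNGAAA on both strands, lay in 4 of the 6 rising members with a promoter sequence and in 12 of the 29 other members tested, against 3.17% of tested genes and 3.46% of all promoters. Cxcl10 is shown as the named member with the clearest absence on day 3, on chr5:92348890-92349139, minus strand, with the element in capitals.
Cxcl10: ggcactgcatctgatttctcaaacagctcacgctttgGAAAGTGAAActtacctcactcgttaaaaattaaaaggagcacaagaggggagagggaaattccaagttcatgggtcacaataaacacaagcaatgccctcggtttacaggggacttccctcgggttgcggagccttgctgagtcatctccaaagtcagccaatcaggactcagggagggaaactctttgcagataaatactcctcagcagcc

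Genes of antigen presentation by MHC class I moved in both directions, with 2 rises and 2 falls among 11 tested. The shares of all genes tested were 9.62% and 8.97%. Tapbp, which loads peptides onto class I molecules, had 32.2, 16.7 and 19.8 normalized counts on day 3 and 98.3, 73.7 and 76.9 on day 6 (log2 fold change 1.85 ± 0.25 (SE), adjusted p = 1.56e-06). H2-D1 rose and the chaperone gene Calr and the proteasome gene Psmb10 fell, with log2 fold changes of 0.74, −0.81 and −0.60. The call of H2-D1 was lost without day 3 replicate 3, and that of Psmb10 without day 3 replicate 2 or day 6 replicate 1, which leaves 1 rise or 1 fall. H2 class I genes are near-identical copies, so their reads are uncertain. Chemokine and cytokine genes of fibroblasts rose in 5 of 19 members, and 1, Il11, fell, against the same 9.62% and 8.97% of all genes. Cxcl1, a neutrophil attractant, had 5.37, 8.35 and 5.22 normalized counts on day 3 and 20.5, 58.99 and 24.3 on day 6 (log2 fold change 2.50 ± 0.45 (SE), adjusted p = 0.000107). Cxcl16 had 8.44, 12.98 and 15.7 normalized counts on day 3 and 66.7, 56.7 and 67.5 on day 6 (log2 fold change 2.39 ± 0.31 (SE), adjusted p = 5.67e-07), and Ccl2, a monocyte attractant, had 105, 98.3 and 61.5 normalized counts on day 3 and 156, 283 and 211 on day 6 (log2 fold change 1.30 ± 0.25 (SE), adjusted p = 0.000282). Day 6 replicate 2 was again the highest for Cxcl1 and Ccl2, but not for Cxcl16.

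Of the immediate early factors, 4 of 16 rose and 1 fell, where 9.62% of all genes tested rose and 8.97% fell. Atf3, a stress-induced transcription factor, had 33.8, 23.2 and 33.4 normalized counts on day 3 and 80.4, 66.8 and 76.9 on day 6 (log2 fold change 1.32 ± 0.30 (SE), adjusted p = 0.00182), and the phosphatase gene Dusp1 had 62.2, 44.5 and 68.9 normalized counts on day 3 and 142, 134 and 86.4 on day 6 (log2 fold change 1.08 ± 0.24 (SE), adjusted p = 0.00113). Klf6 rose and Ier3 fell (log2 fold changes 0.68 and −1.16), calls lost without day 3 replicate 3 for Klf6 and without day 3 replicate 2 or day 6 replicate 1 for Ier3. Fos and Jun, the core of AP-1, were not called, at 0.46 and 0.38. Without day 3 replicate 3, 2 members rose.

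The cell cycle lists moved little. Of 47 genes of DNA replication, 6 fell and 1 rose (median −0.16), and of 52 genes of mitosis, 4 rose and none fell (median 0.08). Over all genes tested 9.62% rose and 8.97% fell, and the share of mitotic genes that rose lay below the former. Chaf1b, a chromatin assembly factor, had 46.8, 34.3 and 31.3 normalized counts on day 3 and 16.2, 12.4 and 12.2 on day 6 (log2 fold change −1.44 ± 0.31 (SE), adjusted p = 0.00098). Ccne1, the cyclin of S phase entry, had 26.9, 19.5 and 26.1 normalized counts on day 3 and 4.27, 4.66 and 9.45 on day 6 (log2 fold change −2.03 ± 0.54 (SE), adjusted p = 0.00699). The condensin gene Smc4 had 301, 206 and 243 normalized counts on day 3 and 392, 368 and 522 on day 6 (log2 fold change 0.78 ± 0.16 (SE), adjusted p = 0.000672), and the other 3 called were the centromere genes Cenpf, Cenpa and Cenpe, with log2 fold changes of 0.56 to 1.00. Without day 6 replicate 1, 3 replication genes fell. The mitotic rises came to 2 without day 3 replicate 2 and to 1 without day 6 replicate 3.

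Of 24 cell cycle inhibitors, D cyclins and p53 targets, 7 fell and 3 rose. The share of rises was near the 9.62% of all genes tested that rose, while 8.97% of all genes fell. Trp53 itself (chromosome 11, 69580359 to 69591873) had 99.8, 189 and 128 normalized counts on day 3 and 44.5, 48.9 and 47.2 on day 6 (log2 fold change −1.55 ± 0.24 (SE), adjusted p = 1.28e-05), and Ccnd2, a D cyclin, had 757, 692 and 828 normalized counts on day 3 and 449, 419 and 416 on day 6 (log2 fold change −0.81 ± 0.15 (SE), adjusted p = 0.000134). Bbc3, the gene of the death protein PUMA and a p53 target, rose, with 13.1, 5.56 and 8.35 normalized counts on day 3 and 37.6, 22.5 and 33.7 on day 6 (log2 fold change 1.76 ± 0.37 (SE), adjusted p = 0.000757), as did the p53 target Trp53inp1 (log2 fold change 1.41 ± 0.27 (SE)). Ei24 also rose. The p53 targets Ccng1, Bax, Pmaip1 and Phlda3 fell, as did the D cyclin gene Ccnd1, so the called p53 targets lay in both directions. Cdkn1a, the p53 target encoding p21, was not called (−0.03). Without day 3 replicate 2 or day 6 replicate 3, 4 members fell.

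Genes of ribosome production that respond to MYC fell in 8 and rose in 3 of 44 members tested (median −0.26). Falls made up 8.97% of all genes tested and 397 of the 2048 most abundant. A comparison with genes of like abundance was not made for this list. Nop2, an rRNA methyltransferase, had 159, 138 and 129 normalized counts on day 3 and 72.7, 67.5 and 60.7 on day 6 (log2 fold change −1.06 ± 0.23 (SE), adjusted p = 0.00101). Polr1a, the large subunit of RNA polymerase I, had 57.6, 84.4 and 73.03 normalized counts on day 3 and 29.9, 24.8 and 45.9 on day 6 (log2 fold change −1.11 ± 0.24 (SE), adjusted p = 0.00104). Mybbp1a and Ddx56, both nucleolar, fell with log2 fold changes of −1.03 and −0.83. The nucleostemin gene Gnl3, singled out after its value was seen, rose (0.98).

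Glycolytic genes fell more often than they rose, where 8.97% of all genes tested fell and 9.62% rose. Of 21 tested, 8 fell and 1 rose, with a median log2 fold change of −0.57. Pkm, the gene of pyruvate kinase (chromosome 9, 59656368 to 59679375), had 902, 1063 and 918 normalized counts on day 3 and 308, 472 and 299.6 on day 6 (log2 fold change −1.39 ± 0.18 (SE), adjusted p = 8.42e-07). Gpi1, which encodes glucose phosphate isomerase, had 523, 821 and 678 normalized counts on day 3 and 227, 343 and 252 on day 6 (log2 fold change −1.27 ± 0.20 (SE), adjusted p = 1.36e-05). Gapdh had 4692, 11000 and 8903 normalized counts on day 3 and 1618, 3364 and 2404 on day 6 (log2 fold change −1.72 ± 0.32 (SE), adjusted p = 0.000173), with wide spread on day 3 and replicate 1 the lowest on both days. Gapdh has many processed pseudogenes, so its reads are less certain. Aldoa, an aldolase gene, fell by 0.89 on the log2 scale, and the lactate dehydrogenase genes Ldha and Ldhb, singled out after their values were seen, by 0.86 and 1.13. The call of Ldhb was lost with the replicate block (adjusted p = 0.0572). Without day 3 replicate 2 or day 6 replicate 1, 5 members fell.

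Serine and one-carbon metabolism, which feeds nucleotide synthesis and methylation, had 9 falls and 1 rise among 25 members tested (median −0.25). Of all genes tested 8.97% fell and 9.62% rose. Atic, for the last steps of purine synthesis, had 253, 373 and 377 normalized counts on day 3 and 99.2, 129 and 116 on day 6 (log2 fold change −1.52 ± 0.19 (SE), adjusted p = 4.35e-07). Shmt1, a serine hydroxymethyltransferase, had 189, 169.7 and 162 normalized counts on day 3 and 58.99, 82.3 and 59.4 on day 6 (log2 fold change −1.35 ± 0.19 (SE), adjusted p = 4.63e-06). Psat1 and Mat2a, the enzymes of serine and of S-adenosylmethionine synthesis, fell with log2 fold changes of −0.88 and −0.75. Gldc, of the glycine cleavage system, rose (1.08). There were 5 falls without day 3 replicate 2, without day 6 replicate 1 or without day 6 replicate 3.

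Cholesterol synthesis went the other way, with 5 rises and no fall among 23 tested (median 0.33). The share of rises over all genes tested was 9.62%. Fdft1, the gene of squalene synthase, had 241, 342 and 281 normalized counts on day 3 and 442, 562 and 509 on day 6 (log2 fold change 0.83 ± 0.17 (SE), adjusted p = 0.000666). Cyp51, Hmgcs1, Nsdhl and Sqle rose with log2 fold changes of 0.57 to 0.71. There was 1 rise without day 3 replicate 1, and there were 3 without day 3 replicate 3, 2 without day 6 replicate 1 and 3 without day 6 replicate 2. Of 74 nuclear-encoded subunits of oxidative phosphorylation, 12 fell and 5 rose (median −0.10). Among all genes tested 8.97% fell and 9.62% rose, so that the share rising lay below that of all genes. Among the 2048 most abundant genes tested, 397 fell and 243 rose. Whether the subunits fell more often than genes of like abundance was not tested. Uqcrc1, of complex III, had 141, 150.2 and 118 normalized counts on day 3 and 285, 219 and 302 on day 6 (log2 fold change 0.99 ± 0.19 (SE), adjusted p = 0.000272), and Ndufc1, of complex I, had 179.6, 257 and 257 normalized counts on day 3 and 116, 135 and 111 on day 6 (log2 fold change −0.91 ± 0.19 (SE), adjusted p = 0.000666). The falls came to 3 without day 3 replicate 2 and 6 without day 6 replicate 1, and the rises to 3 without day 3 replicate 1 or 3 and to 1 without day 6 replicate 3.

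**Figure D3:**
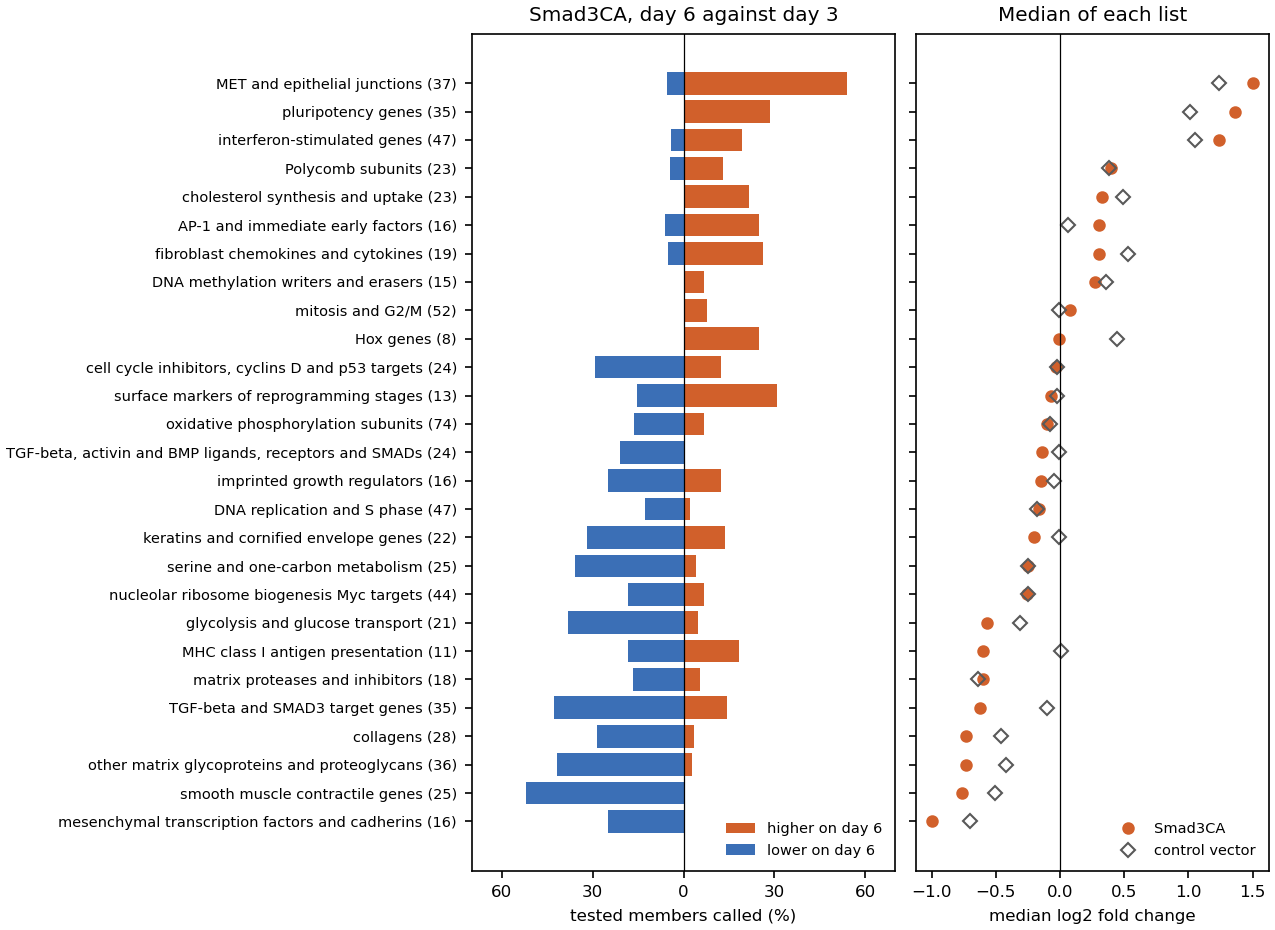
For each gene list, the left panel gives the percentage of tested members called higher or lower on day 6 in +Sm3CA cells (number tested in parentheses) and the right panel the median log2 fold change in +Sm3CA (filled circles) and Cont (open diamonds). MET genes and contractile genes lie at medians of 1.50 and −0.76 in +Sm3CA.

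Markers of other cell types were measured beside these lists, with the same shares of 9.62% rising and 8.97% falling over all genes tested. The summed level of the 16 fibroblast markers in the table went from 2649 to 3734 normalized counts on day 3 to 1514 to 1967 on day 6, and 4 of the 14 tested fell (S100a4, Col1a1, Thy1 and Dcn), with Lum at 0 on day 3. Lum was not called (adjusted p = 0.0867) but was called higher with the replicate block (adjusted p = 0.0474). In wild-type MEFs the sum of the fibroblast markers was 8905 to 11728, though Dcn stood at 59.97 there, under its day 6 mean of 458.6. The call of Dcn was lost with 1 well per library and without day 3 replicate 2, day 6 replicate 1 or day 6 replicate 3. The sum of the ESC markers was 334 to 468 on day 3 and 419 to 525 on day 6, mostly Tdh, a gene of threonine breakdown. Of the 11 ESC markers tested, 8 had a log2 fold change above 0, and Pou5f1 and Zfp42 were called higher. Tdh and Sox2 went the other way without a call, with log2 fold changes of −0.22 and −1.10. Reads of Pou5f1 can include the MKOS cassette. Macrophage markers summed to 346 to 727 and then to 630.3 to 1078, with overlap and with 1 of 12 called, Laptm5, which fell, a call lost without any 1 of 4 libraries (day 3 or day 6 replicates 2 and 3). Most of the macrophage sum was the lysozyme gene Lyz2, with 272, 326 and 580.1 normalized counts on day 3 and 724, 553 and 941 on day 6 (adjusted p = 0.0749). It was higher on day 6 in each of the 3 same-numbered pairs, and with the replicate block Lyz2 and Cd68 were called higher (adjusted p = 0.0264 and 0.0422). The part of macrophages in the change of the interferon-stimulated and chemokine genes was not tested.

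Endothelial markers had no called member, with Tie1, Vwf, Cldn5 and Plvap at 0 on day 3, and the oligodendrocyte and Schwann cell markers had none either, with Sox10, Olig1, Olig2 and Gfap at 0 on day 3. Of the 3 skeletal muscle markers tested, Myl4, a light chain of embryonic muscle myosin, rose and Acta1 fell. Myog was at 0 on day 3. Myl4 had 2.30, 4.64 and 1.04 normalized counts on day 3 and 38.5, 41.9 and 28.3 on day 6 (log2 fold change 3.74 ± 0.48 (SE), adjusted p = 7.03e-07). The call of Acta1 was lost with the replicate block (log2 fold change −1.56, adjusted p = 0.0526), with 1 well per library and without any 1 of 5 libraries, all but day 3 replicate 1 (adjusted p up to 0.161). The neuronal sum of 4185 to 5757 and then 4922 to 7323 was nearly all Stmn2, a tubulin-binding protein gene with 3623, 5049 and 4541 normalized counts on day 3 and 4407, 5642 and 6919 on day 6, which was not called (adjusted p = 0.287). Of the 11 neuronal markers tested, Map2, Nefl and Pax6 rose and Tubb3 fell, where 9.62% of all genes tested rose and 8.97% fell. Of the 3 mast cell and basophil markers tested Kit rose and Mcpt8 fell, and of the 2 trophoblast markers tested Tfap2c rose. In the chondrocyte and osteoblast, adipocyte and endoderm lists, with 3, 1 and 5 members tested, Bglap, Lpl and Sparc fell. Bglap overlapped between days and lost its call without any 1 of 5 libraries, all but day 3 replicate 1. Lpl lost its call without day 3 replicate 3 or day 6 replicate 1, and Tfap2c without day 3 replicate 2 or 3 or day 6 replicate 1. The calls of Pax6, Tubb3, Kit and Mcpt8 were also lost when single libraries were left out, with adjusted p-values of up to 0.101 for Pax6 and 0.0804 for Tubb3.

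The same interval in Cont cells shows which of these changes were shared. In Cont cells 503 genes rose (4.91%) and 431 fell (4.21%). With each series fitted alone, the numbers came to 822 rises and 816 falls in +Sm3CA and 802 and 814 in Cont. Of the 985 genes that rose in +Sm3CA, 946 (96.0%) had a positive log2 fold change in Cont as well, and 338 were called there, which is 34.3% of the +Sm3CA calls and 67.2% of the Cont calls. Of the 918 that fell, 894 (97.4%) had a negative one and 343 were called, 37.4% and 79.6% of the calls. No gene was called in opposite directions. Among the lists, MET genes had 18 rises in Cont (median 1.24), contractile genes had 9 falls (median −0.51), and TGF-β and SMAD3 target genes had 7 falls and 3 rises (median −0.10). Over all genes tested 74.5% had the same sign in both series, and the log2 fold changes were correlated across genes (Pearson's r = 0.652, n = 10237 genes, which are not independent). Genes called in +Sm3CA had medians of 1.13 and −0.95 there and of 0.70 and −0.59 in Cont, but they were chosen on the +Sm3CA values. Genes called in Cont had medians of 1.30 and −0.87 in Cont and of 1.10 and −0.95 in +Sm3CA. Both contrasts came from the one fit of 24 libraries and share no sample. The Cont counts moved with single libraries. Rises in Cont came to 300 without Cont day 3 replicate 1 and 318 without Cont day 6 replicate 2. Falls in Cont came to 258 and 232 without Cont day 3 replicates 1 and 2, and to 226 and 211 without Cont day 6 replicates 1 and 2.

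The test of the difference between the changes called no gene (0.0%) in edgeR and none in DESeq2, with a smallest adjusted p of 0.658 in edgeR. At an unadjusted p under 0.05 there were 510 genes (4.98%). The smallest p-values were those of Krt6a, Tnc and Sco1, an assembly factor of cytochrome c oxidase. Krt6a had 206, 352 and 282 normalized counts on day 3 and 211, 159.9 and 206 on day 6 in Cont cells, where it was not called (adjusted p = 0.201), and the difference of log2 fold changes was −1.61 ± 0.36 (SE). Tnc had 30.3, 53.2 and 37.4 and 28.4, 53.6 and 52.7 in Cont cells, with a difference of −2.10 ± 0.50 (SE). Both genes stood higher on day 3 in +Sm3CA than in Cont on average. For Smad3 the difference of −1.51 ± 0.50 (SE) had an adjusted p of 0.976. Il11, Grem1 and Gal were called in +Sm3CA and not in Cont, and for each the difference had an adjusted p of 0.976.

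Without the filter on low counts, 6 genes were called for the difference, namely Chit1, Krt17, Krt6a, Ly6g6c, Spink12 and Tnc. Without +Sm3CA day 3 replicate 1, Chit1, Krt6a and Ly6g6c were called. Ly6g6c, a gene of the Ly6 surface protein family, had 85.2, 312 and 224 normalized counts on day 3 and 487, 398 and 464 on day 6 in +Sm3CA, and 112, 156 and 115 on day 3 and 774, 706 and 773 on day 6 in Cont. The change was smaller in +Sm3CA, with a difference of −1.44 ± 0.27 (SE) without the filter, and day 3 replicate 1 stood below the other +Sm3CA libraries. Krt17 had 116, 151 and 254 normalized counts on day 3 and 321, 339 and 249.7 on day 6 in +Sm3CA, against 64.2, 104 and 97.5 and then 376, 279.6 and 419 in Cont.

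**Figure D4:**
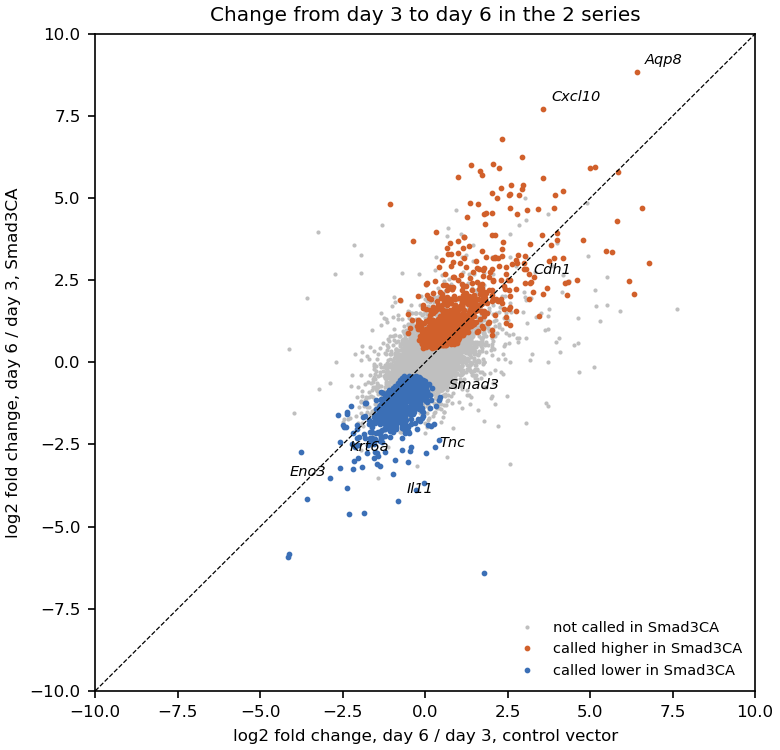
Log2 fold change from day 3 to day 6 in Cont (horizontal axis) and +Sm3CA (vertical axis) for the 10237 genes tested, coloured where called in +Sm3CA, with a dashed line of equal change. Cdh1 lies at 3.03 and 2.42, and Krt6a and Tnc lie below the line at −0.53 and −2.14 and at 0.16 and −1.93. Positions of Aqp8, Cxcl10 and Il11 rest on groups with at most 3 reads per library.

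The genes of the interval were also placed on the difference between ESCs and MEFs, a comparison that shares no library with it. There 2066 of 8798 genes (23.5%) were higher and 2531 (28.8%) lower in ESCs. Of the 727 rising genes tested there, 260 (35.8%) were higher in ESCs and 114 (15.7%) lower. Of the 852 falling genes, 447 (52.5%) were lower in ESCs and 99 (11.6%) higher. Dqx1, for example, stood at 19.8 ± 16.7 normalized counts in MEFs and 216 ± 127 in ESCs, under its day 6 level in all +Sm3CA libraries. Krt8 stood at 2.12 ± 1.24 in MEFs and 5.18 ± 8.97 in ESCs, and Aqp8 had no read in any library of either (mean ± SD, n = 3). The day 6 levels of these 3 genes thus lay above both. Lgals1 had an MEF level of 19325 ± 3958 and an ESC level of 627 ± 210.1. Its mean was already down to 3006 on day 3 and was 602 on day 6, near the ESC level.

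On days 8 and 10 the named genes took different courses, given here as levels without a test. Cdh1 stood at 200.4 ± 50.5 normalized counts on day 8 and 236 ± 8.94 on day 10, with an ESC level of 174 ± 32.2. Lefty2 stood at 20.3 ± 3.80 and 73.1 ± 25.99, with an ESC level of 139 ± 36.6. Both were still above their day 3 levels. Smad3 stood at 69.5 ± 18.3 and 41.6 ± 7.81, with an MEF level of 32.04 ± 9.03. Inhba remained low at 3.07 ± 3.45 and 1.73 ± 0.93, against 628 ± 120.2 in MEFs. Krt6a came back to 167 ± 48.7 and 171 ± 65.03, between its day 3 and day 6 levels.

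**Figure D5:**
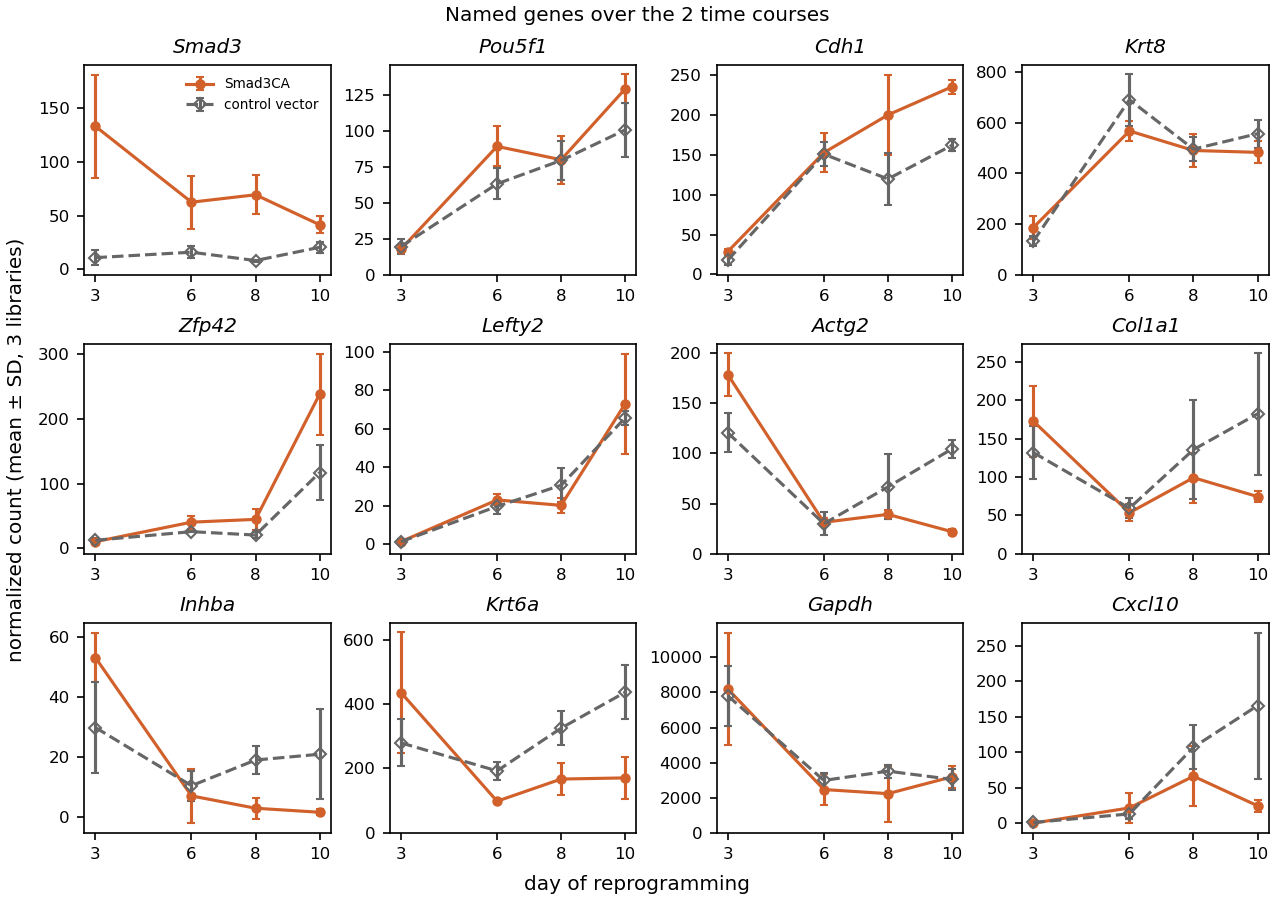
Normalized count (mean ± SD of 3 libraries) by day of reprogramming for 12 named genes, with filled circles and solid lines for +Sm3CA and open diamonds and dashed lines for Cont. Pou5f1 and Cdh1 rise from day 3 to day 6 in both series, while Smad3 is higher in +Sm3CA on day 3.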

How the data were processed

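STRT RNA-seq was deposited by the authors as raw read counts for 18909 genes in each of 84 wells of 195330 to 902989 reads, without normalization. Per the labels, Bowtie 0.12.9 and DESeq2 1.6.3 were used, and the genome build is not given in the sources used here. The labels give 2500 cells per sample, whereas the paper's methods state a smaller number. Samples were grouped by title, all columns were mapped, and the 2 or 3 wells of a replicate were summed to 30 libraries.

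The main test was that of edgeR 4.0.16 under R 4.3.3 (TMM, filterByExpr, glmQLFit and glmQLFTest, Benjamini-Hochberg threshold 0.05) in one fit of the 24 reprogramming libraries with 8 groups, which share one estimate of the spread. SEs are the absolute log2 fold change over the square root of F. ESCs and MEFs were fitted apart. Normalized counts used DESeq2 1.42.0 size factors over all 30 libraries. A gene that nowhere exceeded 3 reads on a day has no reliable fold and is given by its values. Positions are GENCODE genes of GRCm38, matched by symbol for 133 of 136 named genes.

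Members and the 28 pathway and 12 cell type lists were chosen with earlier results of these data known, and several genes were chosen for display after their values were seen. The rule for named genes took Smad3 and the MKOS genes, the 12 largest called changes free of overlap with a mean of at least 20 normalized counts in each direction, up to 4 called members per list by p, the 3 smallest p-values of the difference and 2 markers per cell type. Of 1057 listed genes, 1026 were in the table. Some genes are not reported here and were left out of the lists.

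The design text of the series pairs replicates over days within a series, so the replicate number was also fitted as a block. Same-numbered day 3 and day 6 libraries had correlated deviations of 0.120, 0.071 and 0.003 in +Sm3CA and −0.012, −0.025 and −0.033 in Cont. Biological replicates are stated by the series. Alternatives were DESeq2 size factors, the DESeq2 Wald test, no filter, 12 libraries or 3 against 3, the block, 1 well per library, a threshold of 0.01 and leaving out each library. On simulated counts for the +Sm3CA interval with 10237 genes, edgeR called 43 of 100 genes changed 2-fold, 81 of 100 changed 4-fold and 6 of 9827 unchanged genes. Only these few genes changed there, fewer than were called in the data, and the counts were drawn from the fitted model. The rates therefore need not hold for the data. Exact permutation of 3 against 3 libraries cannot go below 0.1 and was not used for calls. Counts are of reads and not of molecules, so amplification copies are counted more than once.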

Additional observations from a re-analysis of the deposited data

How the results depend on the processing

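Depth limits genes of few reads, and a gene at 3 reads or fewer in a library was treated as undetected. In +Sm3CA the 985 rises became 484 and the 918 falls 511 with 1 well per library, and 499 and 491 at an adjusted p under 0.01. Leaving out single libraries gave 625 to 932 rises and 550 to 918 falls. In Cont the 503 rises became 254 with 1 well per library, 251 at the stricter threshold and 802 with 3 libraries against 3, with 300 to 444 when single libraries were left out. The 431 Cont falls became 196, 195 and 814, with 211 to 328. The difference between the series called 0 genes, 6 without the filter and 0 to 3 with single libraries left out. The log2 fold change of Smad3 ran from −1.44 to −0.74 over the libraries left out, and its adjusted p with the replicate block was 0.00819.

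With the replicate block, which follows the stated pairing over days, 971 genes rose and 916 fell in +Sm3CA, of which 938 and 886 were also called without it, 496 rose and 428 fell in Cont, and the difference called 0. Among the 119 named genes besides Smad3 that were called, the block took the call of Acta1 only, and it called Lyz2 and Cd68 among those not called. Of these 119 genes, 84 were called under every alternative run, 35 lost the call under at least 1, and none reversed. Of the list counts, 1 well per library gave 12 rises of MET genes, 6 of pluripotency genes and 4 of interferon-stimulated genes, and 3 against 3 gave 13, 6 and 3. DESeq2 called 1839 genes in +Sm3CA.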
